A study of Mus musculus with 2 samples.

Results

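CD4_T is the name of 1 of 30 clusters that the authors deposited for single cells of Hep1-6 tumours, and its members were taken as every cell carrying that name. It held 73 of 11247 cells, 47 of 5482 in the library of tumours treated with an antibody against SIGLEC15 and 26 of 5765 in the library treated with control IgG. Hep1-6 is a mouse hepatoma line. It was grown as grafts under the skin of wild-type male C57BL/6 mice aged 6 to 8 weeks, and both agents were given by injection into the peritoneum. The design text gives 3 mice per group, but each group is 1 library and no label ties a cell to a mouse, so the spread between mice was not measured. Cells enriched with beads for CD45, the surface protein of blood-derived cells, were mixed in equal parts with unsorted tumour cells.

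CD4 T cells read antigen presented on class II molecules and act mainly by secreting cytokines and by showing ligands to other cells. Helper cells are usually sorted by their cytokine and transcription factor (interferon gamma and T-bet for T helper 1, GATA3 for T helper 2), whereas regulatory T cells depend on the transcription factor Foxp3 and restrain other T cells. In tumours both kinds often carry receptors of the TNF receptor family such as OX40, encoded by Tnfrsf4.

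Values below are counts of unique molecular identifiers (UMIs, each standing for 1 captured transcript), and a summed level is given as CPM (counts per 1e+06 UMIs of the cluster). Intervals are exact at 95%, and they cover counting error only. Comparisons with CD8_T_1 (208 cells), CD8_T_2 (127 cells) and CD3_T (138 cells) are descriptions of the antibody library with no test, since cells of 1 library are not replicates and the same transcripts formed the clusters. The 47 CD4_T cells held 161842 UMIs in all, with 1076, 2808 and 8142 UMIs in the shallowest, the median and the deepest cell. The median was 5474.5 in CD8_T_1, 2591 in CD8_T_2 and 1367 in CD3_T. The libraries shared 11 cell barcodes, and 0 of these were CD4_T cells. A fold is called here when it exceeds 2, among genes with at least 10 UMIs in either cluster of a pair.

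The lineage genes of the cells, which may themselves have shaped the authors' clusters, were read as a description of the name. Every one of the 47 cells held a UMI of Cd3d, Cd3e or Cd3g, the invariant chains of the T cell receptor complex. Cd4, the coreceptor that gives the lineage its name (chromosome 6, 124864692 to 124888221 in GRCm38 by GENCODE M21, as for all positions here, minus strand), ranged from 0 to 8 UMIs per cell with a median of 1. It was found in 29 of 47 cells, 61.7% (46.4 to 75.5%). The summed Cd4 level was 482 CPM, against 26.8 in CD8_T_1, 12.8 in CD8_T_2 and 70.3 in CD3_T. After each cell was thinned to 1000 UMIs, Cd4 was held by 34.2% of CD4_T cells, 3.10% of CD8_T_1 cells, 1.30% of CD8_T_2 cells and 4.34% of CD3_T cells. In the tumour clusters, which should lack Cd4, 0.156% of 3213 cells held it at a median depth of 20428 UMIs.

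Both CD8 coreceptor genes were close to absent. Cd8a, the alpha chain of the CD8 coreceptor, gave 2 UMIs in 2 CD4_T cells, and Cd8b1, its beta chain, gave 4 UMIs in 3 cells. Cd8a stood at 12.4 CPM against 311 in CD8_T_1, 505 in CD8_T_2 and 253 in CD3_T. The list of 8 CD8 T cell markers as a whole was not absent: it summed to 2292 CPM in CD4_T, with a UMI in 44 of 47 cells and all 8 genes seen, against 3127 in CD8_T_1, 9041 in CD8_T_2 and 11756 in CD3_T. Of its 371 UMIs in CD4_T 264 were of Nkg7, a granule protein that helper cells can also express. Cxcr6, a chemokine receptor of the list, was over 2-fold higher than in CD8_T_1, at 229 CPM against 112. Of the 8 markers 5 were over 2-fold lower than in CD8_T_1, where 19.1% of all genes compared were. Of the 12 markers listed for natural killer cells, Ncr1, Klrb1c, Klra4, Klra7, Klra8, Klra9 and Gzma were at 0 in CD4_T, and the summed level of the list was 167 CPM against 5838 in CD3_T, where all 12 had UMIs. Markers of the hepatoma summed to 803 CPM in CD4_T, 794 in CD8_T_1, 801 in CD8_T_2 and 1537 in CD3_T. Macrophage markers summed to 402 CPM in CD4_T with C1qc, Adgre1, Mrc1 and Csf1r at 0, and 468, 492 and 811 CPM in the other clusters in the same order. Neutrophil markers summed to 222 CPM with Cxcr2, Il1b, Retnlg and Clec4d at 0, against 534 to 1513 CPM in the others. Most of the 36 neutrophil UMIs in CD4_T came from 1 cell, with 18 of S100a9 and 12 of S100a8. The 8 B cell markers gave 4 UMIs, with 7 of the 8 at 0.

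**Figure D1:**
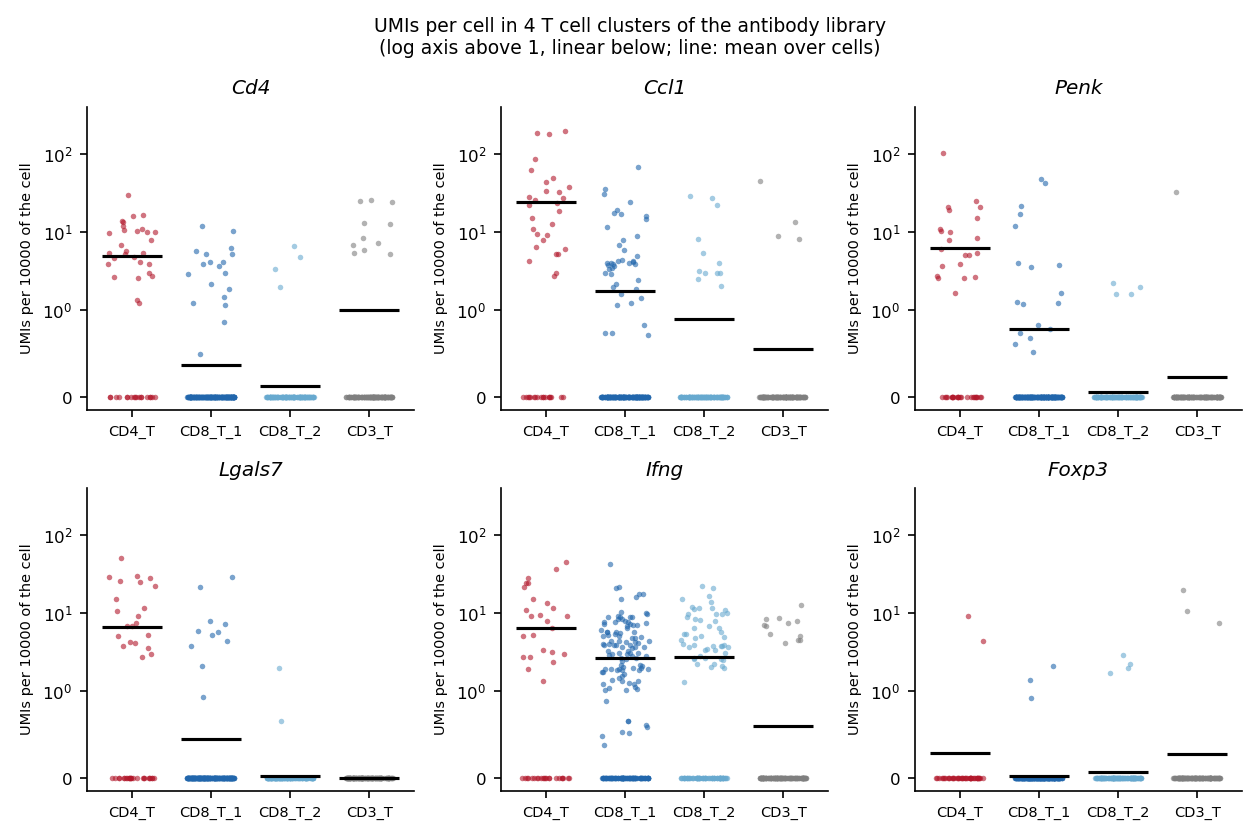
UMIs of 6 genes in each cell of CD4_T, CD8_T_1, CD8_T_2 and CD3_T in the antibody library, per 10000 UMIs of the cell (vertical axis, logarithmic above 1 and linear below); points are cells and black lines the mean over cells. Ccl1, Penk and Lgals7 have their highest means in CD4_T, where single cells reach 139, 44 and 21 UMIs before scaling to 10000. A CD8_T_1 cell holds more Lgals7, at 35 UMIs. Foxp3 is held by 2 of the 47 CD4_T cells.

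Foxp3, on which regulatory T cells depend (chromosome X, 7573644 to 7595245, plus strand), was found in 2 of 47 CD4_T cells with 1 UMI each. That is 4.26% (0.520 to 14.5%), and 2.92% after thinning to 1000 UMIs. CD8_T_1 had Foxp3 in 3 of 208 cells, CD8_T_2 in 4 of 127 and CD3_T in 3 of 138, so the interval in CD4_T included the share of each of the other T cell clusters. These clusters differ in depth. After thinning their shares were 0.214%, 0.694% and 1.52%, each below the 2.92% of CD4_T. The interval of the thinned CD4_T share, taken from its expected count of cells rounded to a whole number, was 0.0539 to 11.3%. It is approximate and still included all of them. In the tumour clusters 1 of 3213 cells held it, and in MDSC_1 to MDSC_4, clusters with neutrophil transcripts, 0 of 707 cells did at a median depth of 1047 UMIs, which by a floor of 3 counts allows a share of cells with a UMI, not of expressing cells, of up to 0.424%. The whole antibody library held 16 Foxp3 UMIs in 14 cells. Foxp3 transcripts thus marked 2 cells of the cluster at this depth. How many of the other cells were regulatory T cells cannot be read from this count, since an expressing cell can yield 0 UMIs.

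The 2 Foxp3-holding cells both had 0 UMIs of Cd4, Ccl1, Penk, Ifng and Nkg7. These genes were held by 29, 29, 22, 25 and 40 of the 47 cells, and some cells without Foxp3 also had 0 of all of them. Both Foxp3-holding cells were shallower than the median of 2808 UMIs, and the part of depth in these zeros was not tested. The first, with 2252 UMIs in all, held 12 UMIs of Capg, an actin-capping protein, 3 of Tnfrsf4, 3 of Icos, 2 of Ikzf2, 2 of Il2ra and 1 of Ctla4. The second, with 1076 UMIs, held 8 UMIs of Tnfrsf4, 4 of Areg, 3 of Lrrc32, 3 of Tnfrsf18 and 1 of Ikzf2. Il2ra encodes the alpha chain of the interleukin 2 receptor, Ikzf2 encodes Helios and Lrrc32 encodes GARP, all known from regulatory T cells. Il10 was at 0 in the whole cluster and Ccr8, the receptor of CCL1, had 1 UMI.

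Ccl1, which encodes a chemokine and ranked after Lgals7 by the rule for the highest genes (chromosome 11, 82176657 to 82305690, minus strand), ranged from 0 to 139 UMIs per cell with a median of 2, and 29 of 47 cells held it. The level was 3411 CPM, against 259 in CD8_T_1, 130 in CD8_T_2 and 60.9 in CD3_T. The ratios were 13.2 (11.5 to 15.04), 26.2 (19.7 to 35.6) and 56.0 (32.5 to 106). CD4_T, with 47 of 5482 cells, gave 34.1% of the 1620 Ccl1 UMIs of the library. The transcript was unevenly spread, since 3 cells with 139, 135 and 82 UMIs gave 64.5% of it. Without these 3 cells the log2 ratio fell from 3.72 to 2.41 against CD8_T_1, from 4.70 to 3.39 against CD8_T_2 and from 5.75 to 4.44 against CD3_T. The 1 cell with 135 Ccl1 UMIs also held 62 of the 66 UMIs of Lyz2, the lysozyme of myeloid cells, so that Lyz2 stood among the 20 highest genes of the cluster through that cell. After thinning to 1000 UMIs, the share of cells holding Ccl1 was 48.7% in CD4_T, 8.83% in CD8_T_1, 4.73% in CD8_T_2 and 3.11% in CD3_T. In the tumour clusters it was 0.0458%.

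The 5 genes that led CD4_T over all other T cell clusters, by the lowest bound of their 3 ratios, were Lgals7, Ccl1, Penk, Igfbp7 and Tnfsf8, and 22 of the 47 cells held at least 3 of them. The number held moved with depth: the 7 cells with all 5 genes had a median of 4634 UMIs, and the 11 cells with 0 of them had 1753. RefSeq promoter sequences of GRCm38.p6 were matched for 4 of the 5, with none for Penk. The 250 bases before the start of Ccl1 and Igfbp7 are printed to set side by side the upstream letters of a pair of the leading genes. Capitals mark matches, on either strand, to 3 motifs of factors that act in activated T cells, GGAAA (the core bound by NFAT), GGGANNNNCC (NF-kB) and TGANTCA (AP-1). The Ccl1 window lies at chr11:82179813-82180062 and the Igfbp7 window at chr5:77408046-77408295, both on the minus strand. RefSeq and GENCODE place the start of Ccl1 differently. The Ccl1 window precedes the RefSeq start and lies inside the GENCODE span given above, which on this strand begins at 82305690.
Ccl1: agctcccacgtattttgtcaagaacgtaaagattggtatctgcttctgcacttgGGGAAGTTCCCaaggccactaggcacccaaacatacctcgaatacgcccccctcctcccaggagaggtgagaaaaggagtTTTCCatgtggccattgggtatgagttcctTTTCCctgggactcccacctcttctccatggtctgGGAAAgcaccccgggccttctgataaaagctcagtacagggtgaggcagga
Igfbp7: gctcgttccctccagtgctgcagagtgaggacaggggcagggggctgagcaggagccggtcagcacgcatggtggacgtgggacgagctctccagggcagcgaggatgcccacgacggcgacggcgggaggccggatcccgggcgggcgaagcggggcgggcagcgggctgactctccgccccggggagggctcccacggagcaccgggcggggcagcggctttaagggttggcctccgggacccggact
The Ccl1 window held 3 matches to GGAAA and 2 to GGGANNNNCC, which overlap, 1 on each strand. The Igfbp7 window held 0 matches to any of the 3, and its GC content was 74.0% against 52.8% for Ccl1 and a median of 52.4% over 32536 promoters. GGAAA was present in 55.7% of those promoters, GGGANNNNCC in 17.7% and TGANTCA in 6.73%. A match is a description of letters and not a site of binding.

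Penk encodes proenkephalin, the precursor of opioid peptides (chromosome 4, 4133531 to 4138819, minus strand). It ranged from 0 to 44 UMIs per cell with a median of 0, and 22 of 47 cells held it. Its level was 748 CPM against 60.2 in CD8_T_1, 10.2 in CD8_T_2 and 14.1 in CD3_T. The ratio to CD8_T_1 was 12.4 (9.37 to 16.5). The cell with 44 UMIs gave 36.4% of the transcript, and without it the log2 ratio to CD8_T_1 was 3.02 instead of 3.63.

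Lgals7, which encodes galectin-7, a carbohydrate-binding protein (chromosome 7, 28863853 to 28866284, plus strand), ranged from 0 to 21 UMIs and was held by 22 of 47 cells. It stood at 797 CPM against 50.2 in CD8_T_1, where 1 cell held 35 UMIs, and 5.10 in CD8_T_2. CD3_T had 0 Lgals7 UMIs, so the level in CD4_T was at least 56.7-fold higher when 3 UMIs are set as the floor of a cluster. This bound leaves out the counting error of the cluster with UMIs, so it is not one of the exact intervals. Every fold given below as at least a value rests on the same floor. CD4_T gave 45.9% of the 281 Lgals7 UMIs of the library. Igfbp7, a secreted protein that binds insulin-like growth factors, was held by 21 cells with at most 8 UMIs and stood at 408 CPM, 9.38 times (6.56 to 13.4) the level in CD8_T_1 and 16.0 times (8.17 to 34.9) that in CD8_T_2. Outside the T cell clusters Igfbp7 was higher still, at 1305 CPM in Fibroblast&Endothelial_1 and 2645 CPM in Fibroblast&Endothelial_2. CD4_T gave 2.56% of the 2580 Igfbp7 UMIs of the library. Tnfsf8, the ligand of CD30, was held by 19 cells with at most 9 UMIs. It stood at 266 CPM against 14.7 in CD8_T_1 and 14.1 in CD3_T, and with 0 UMIs in CD8_T_2 it was at least 34.7-fold higher than there.

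The other genes among the 20 highest fell into surface and secreted proteins and genes of the cell interior. Cd200, a membrane glycoprotein whose receptor restrains myeloid cells, was held by 19 cells at 185 CPM, 10.3 times (5.90 to 17.9) the level in CD8_T_1. Cytokines of the group were Csf2, the growth factor GM-CSF, with 13 UMIs in 6 cells, Tnfsf11, the ligand of RANK, with 15 UMIs in 9 cells, Spp1, osteopontin, with 22 UMIs in 6 cells, and Ebi3, a subunit of interleukins 27 and 35, with 15 UMIs in 12 cells. Ifi27l2a, an interferon-inducible gene, was held by 38 of 47 cells with a median of 4 and a highest value of 39 UMIs, and its level was 1977 CPM against 186, 515 and 478 CPM in CD8_T_1, CD8_T_2 and CD3_T. Scin, Slc12a2, Ccn4, Tprg, Cd81 and Sdf4 completed the set with Cd4, Lyz2 and Tnfrsf4. By the rule that chose the 20, the whole interval had to lie above 1 against each of the 3 clusters, and 168 of the 2112 genes considered met that.

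Sdf4 and Tnfrsf4 are neighbours in the genome. Sdf4, a calcium-binding protein of the Golgi, ends 232 bases before Tnfrsf4 begins on the same strand of chromosome 4, and Tnfrsf18 follows. Sdf4 was held by 41 of 47 cells at 1223 CPM, 5.28 times (4.42 to 6.31) the level in CD8_T_1. Tnfrsf4 was held by 34 cells at 636 CPM, and Tnfrsf18, the receptor GITR, by 34 cells at 531 CPM. Of the 47 cells, 31 held Sdf4 and Tnfrsf4 together. How the counting assigned reads between neighbouring genes is not given in the sources used here, so the Sdf4 and Tnfrsf4 counts are uncertain as separate measures.

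**Figure D2:**
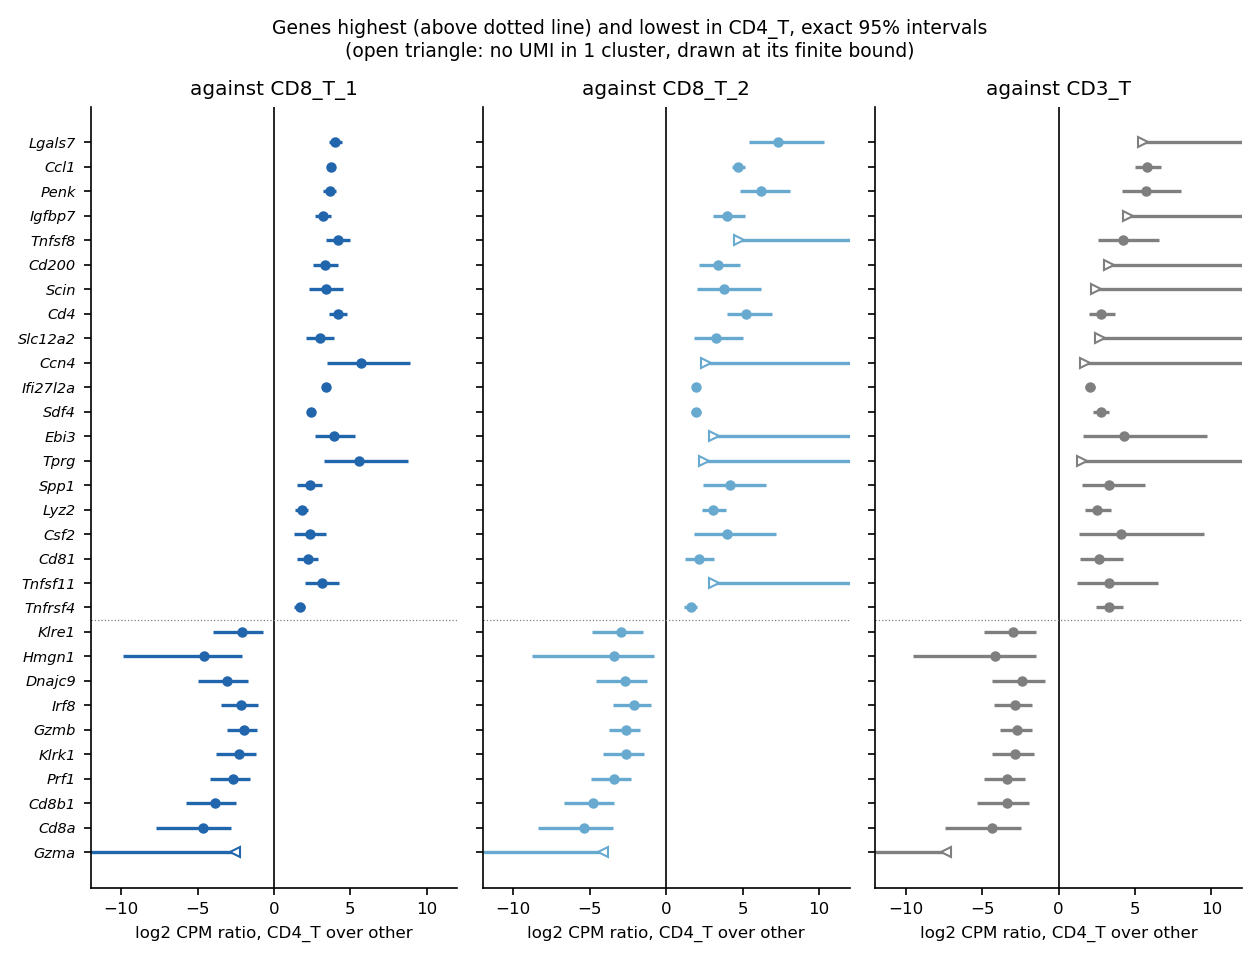
Log2 ratio of the summed CPM of CD4_T to each of the 3 other T cell clusters (horizontal axis) for the 20 genes highest and the 10 lowest in CD4_T by the naming rule; points are ratios and lines exact 95% intervals covering counting error. All intervals of the upper set lie above 0, with Lgals7, Ccl1 and Penk at the top, and Gzma, at 0 UMIs in CD4_T, stands at the bottom of the lower set.

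Cytokine and chemokine genes had the highest median of the 17 lists against each of the 3 clusters. Of 24 listed genes 17 could be compared with CD8_T_1, and 11 of these were over 2-fold higher and 0 lower, where 12.6% of all 8308 genes compared were higher and 19.1% lower. The median log2 ratio of the list was 1.71, and -0.03 over all genes. Against CD8_T_2, 10 of 15 were higher and 2 lower (5.84% and 11.1% of 4558 genes), with a median of 2.06 against -0.04. Against CD3_T, 11 of 16 were higher and 2 lower (12.3% and 13.1% of 3148 genes), with a median of 2.43 against 0.06. A gene could enter a comparison through the cluster in which it was high, and the lists were chosen with results of these data known, so the counts describe the lists and support no further statement. Beyond the leading genes, Lta, lymphotoxin alpha, stood at 80.3 CPM against 6.02 in CD8_T_1, 5.10 in CD8_T_2 and 9.37 in CD3_T. Tgfb1 stood at 216 CPM against 111, 94.4 and 51.5 CPM. The 2 genes over 2-fold lower than in CD8_T_2 were the chemokines Ccl5 and Ccl4. Ccl5 had 284 CPM in CD4_T and 4467 in CD8_T_2, and Ccl4 had 568 and 1347 CPM. Ccl3 and Areg came from few cells, with 80.2% of Ccl3 UMIs and 75.0% of Areg UMIs in 3 cells each.

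Ifng and Csf2 were the T helper 1 genes over 2-fold higher in each comparison. Ifng, which encodes interferon gamma (chromosome 10, 118441046 to 118445892, plus strand) ranged from 0 to 33 UMIs per cell with a median of 1, and 25 of 47 cells held it. Its level was 779 CPM against 302 in CD8_T_1, 298 in CD8_T_2 and 56.2 in CD3_T. The ratios were 2.57 (2.096 to 3.14), 2.61 (2.01 to 3.38) and 13.8 (7.65 to 27.5). The share of cells holding Ifng after thinning was 32.2% (19.1 to 47.1%) in CD4_T, 19.02% (13.8 to 25.0%) in CD8_T_1, 20.3% in CD8_T_2 and 6.15% in CD3_T, so the intervals of CD4_T and CD8_T_1 overlapped. Without the cell with 33 UMIs the log2 ratio to CD8_T_1 was 1.00, and without the 3 cells richest in Ccl1 it was 0.93. Tbx21, which encodes T-bet, had 7 UMIs in 7 cells at 43.3 CPM, against 28.1, 56.1 and 84.3 CPM in the other clusters. Of the T helper 1 list 6 of 12 genes were over 2-fold higher and 1 lower than in CD8_T_1, 3 of 10 higher and 1 lower than in CD8_T_2, and 3 of 10 higher and 2 lower than in CD3_T. Its medians were 1.18, 0.81 and 0.03, and over all genes 12.6%, 5.84% and 12.3% were higher and 19.1%, 11.1% and 13.1% lower.

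The other helper lists were thinly covered. In the T helper 2 list 3 of 5, 1 of 3 and 1 of 2 genes were over 2-fold higher and 0 lower. Its medians against CD8_T_1, CD8_T_2 and CD3_T, in this order, were 1.14, 0.90 and 1.14. In the follicular helper list 2 of 5, 1 of 3 and 2 of 3 were higher and 0 lower. Its medians were 0.89, -0.25 and 1.00. Over all genes 12.6%, 5.84% and 12.3% were higher and 19.1%, 11.1% and 13.1% lower. Gata3 had 13 UMIs in 11 cells, with log2 ratios of 1.14, 0.90 and 0.51. Of the T helper 2 cytokines Il13 had 4 UMIs in 2 cells. Bcl6, the factor of follicular helper cells, had 2 UMIs. Il21 had 8 UMIs in 6 cells, and Il2 was at 0. With 161842 UMIs in the cluster, 0 UMIs allow a level of up to 18.5 CPM. Maf, a member of the T helper 2 list and a transcription factor of several helper and regulatory states, was held by 22 of 47 cells. Its level of 278 CPM was 14.3 times (8.79 to 23.7) that in CD8_T_1, 4.04 times (2.45 to 6.77) that in CD8_T_2 and 3.49 times (1.96 to 6.51) that in CD3_T.

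Several genes listed for regulatory T cells were higher, although few cells held a Foxp3 UMI. Of 12 compared with CD8_T_1, 8 were over 2-fold higher and 0 lower, 7 of 11 were higher against CD8_T_2 and 8 of 10 against CD3_T, with medians of 1.40, 1.36 and 2.28. Over all genes compared 12.6%, 5.84% and 12.3% were higher, with medians of -0.03, -0.04 and 0.06. The 7 members higher in each comparison were Tnfrsf4, Tnfrsf18, Icos, Capg, Il2ra, Izumo1r and Ebi3. Icos is a costimulatory receptor of activated T cells, and Tnfrsf4, Tnfrsf18 and Il2ra are known from activated helper cells as well as from regulatory cells. Izumo1r, the folate receptor 4, had 16 UMIs in 10 cells. Ikzf2 stood at 117 CPM against 90.3, 156 and 131 CPM, and Ctla4 at 117 against 106, 143 and 65.6 CPM, so neither passed 2-fold against any of the 3 clusters.

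Costimulatory receptors and ligands were higher in part. In the comparison with CD8_T_1 6 of 13 were over 2-fold higher and 0 lower, against CD8_T_2 6 of 13 higher and 1 lower, and against CD3_T 7 of 12 higher and 1 lower. The medians were 0.89, 0.43 and 1.24, and over all genes 12.6%, 5.84% and 12.3% were higher and 19.1%, 11.1% and 13.1% lower. The 6 genes higher in every comparison were Tnfrsf4, Tnfrsf18, Icos, Tnfsf8, Tnfsf11 and Cd40lg. Cd40lg, the ligand by which helper cells act on B cells and myeloid cells (chromosome X, 57212143 to 57224042, plus strand), had 13 UMIs in 9 cells, 80.3 CPM against 3.35 in CD8_T_1 and 23.4 in CD3_T, and at least 10.5-fold more than in CD8_T_2, where it was at 0. Cd28, Cd226 and Cd27 were not among them and stood between 0.458 and 1.54 times their levels in the other clusters. Of the inhibitory receptors, 3 of 13, 2 of 11 and 5 of 10 were over 2-fold higher and 2, 1 and 1 lower, in the same order. Cd5, a damper of receptor signals, was 4.08 times (2.77 to 5.93) its level in CD8_T_1, and Btla had 10 UMIs in 7 cells against 13, 0 and 1 UMIs in CD8_T_1, CD8_T_2 and CD3_T. Pdcd1, the receptor PD-1, stood at 210 CPM against 239 in CD8_T_1 and 253 in CD8_T_2, with intervals of both ratios that include 1, and at 4.08 times (2.02 to 8.92) its level in CD3_T. Lag3 lay between the CD8 clusters, at 185 CPM against 105 and 286.

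Gzma, Gzmb and Prf1 were low in CD4_T against each of the 3 clusters. Of the list, 5 of 13 genes were over 2-fold lower than in CD8_T_1 and 1 higher, 7 of 12 lower than in CD8_T_2 and 0 higher, and 6 of 11 lower than in CD3_T and 1 higher. Over all genes 19.1%, 11.1% and 13.1% were lower and 12.6%, 5.84% and 12.3% higher, and the list medians were -0.42, -2.05 and -1.68. Gzma, a granule protease, had 0 UMIs in CD4_T, where the exact interval for the share of cells with a UMI reaches 7.55%, and was at least 7.15-fold lower than in CD8_T_1, 22.02-fold lower than in CD8_T_2 and 200.4-fold lower than in CD3_T. Gzmb, another granule protease, had 10 UMIs in 5 cells at 61.8 CPM against 245, 390 and 398 CPM. Prf1, the pore-forming perforin, stood at 37.1 CPM against 241, 401 and 389 CPM. Nkg7, a granule membrane protein, differed from these: 40 of 47 cells held it with a median of 4 and a highest value of 30 UMIs, and its level of 1631 CPM was 1.30 times (1.13 to 1.47) that in CD8_T_1 and 0.745 times (0.647 to 0.856) that in CD8_T_2. Without the 3 cells richest in Ccl1 the log2 ratio of Nkg7 to CD8_T_1 was 0.17. The lowest 10 genes by the naming rule, which 31 of 1201 genes considered met, were Gzma, Cd8a, Cd8b1, Prf1, Klrk1, Gzmb, Irf8, Dnajc9, Hmgn1 and Klre1. Klrk1, the receptor NKG2D, had 6 UMIs and Klre1, another receptor of natural killer cells, had 4.

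CD4_T cells held few transcripts of division. All 20 cell cycle genes were over 2-fold lower than in CD8_T_1, where 19.1% of all genes were, with a median log2 ratio of -2.66, and 11 of 17 were lower than in CD8_T_2, with a median of -1.19. Against CD3_T 2 of 8 were lower, and the median was -0.01. Over all genes 11.1% were lower than in CD8_T_2 and 13.1% lower than in CD3_T. The 2 of 8 are too few to set apart from the latter share. Mki67, a marker of cycling cells, was held by 4 of 47 CD4_T cells, by 190 of 208 CD8_T_1 cells, by 31 of 127 CD8_T_2 cells and by 9 of 138 CD3_T cells. After thinning the shares were 2.22%, 45.1%, 12.1% and 5.58%. Of genes of naive and memory T cells 8 of 9 were over 2-fold lower than in CD3_T and 0 higher, where 13.1% and 12.3% of all genes were. Klf2, a factor of resting T cells, stood at 80.3 CPM against 623 in CD3_T. Against CD8_T_1 2 of 9 were over 2-fold higher and 0 lower, and against CD8_T_2 1 of 3 higher and 1 lower. Over all genes 12.6% and 5.84% were higher and 19.1% and 11.1% lower. These counts of naive and memory genes are too small to set apart from those shares. Higher than in both CD8 clusters was Il7r, the interleukin 7 receptor, at 148 CPM against 18.7 and 20.4.

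Signalling and activation genes were mixed. T cell receptor signalling genes were over 2-fold higher in 6 of 16, 3 of 16 and 7 of 15 cases against CD8_T_1, CD8_T_2 and CD3_T, and 0 were lower. Of NF-kB and activation genes, 5 of 20, 8 of 18 and 7 of 16 were higher and 2, 3 and 1 lower, with medians of 0.81, 0.82 and 0.69. Over all genes 12.6%, 5.84% and 12.3% were higher and 19.1%, 11.1% and 13.1% lower, so the counts of lower members were near or below the shares over all genes. Nfkbia, an inhibitor and target of NF-kB, was held by 35 cells at 884 CPM, 3.32 times (2.72 to 4.03) its level in CD8_T_1. Among genes that respond to tissue dissociation 5 of 12, 4 of 11 and 2 of 11 were over 2-fold higher and 0 lower, and Junb stood at 1112 CPM against 388, 469 and 548 CPM. The part of dissociation in the activation genes was not tested. Interferon response genes were over 2-fold higher in 3 of 14 cases and lower in 1 against CD8_T_1, and higher in 0 of 9 and 0 of 10 and lower in 1 and 3 against CD8_T_2 and CD3_T. The counts against CD8_T_1 and CD8_T_2 are too small to set apart from the shares over all genes, and the medians were 0.37, 0.05 and -0.62.

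**Figure D3:**
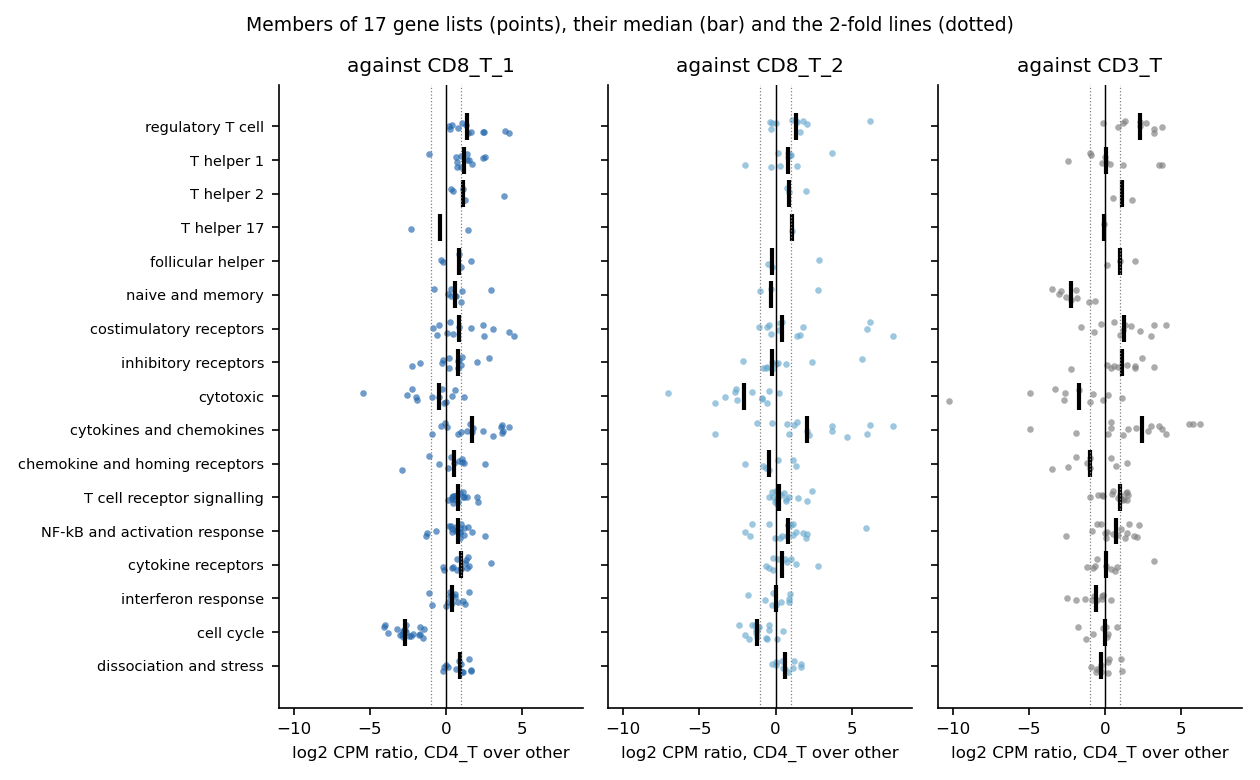
Log2 ratio of summed CPM, CD4_T over CD8_T_1, CD8_T_2 or CD3_T (horizontal axis), for the genes of 17 lists that had at least 10 UMIs in either cluster; each point is a gene, black bars are list medians and dotted lines mark 2-fold. The cytokine list has medians of 1.71, 2.06 and 2.43, and the cell cycle list has medians of -2.66, -1.19 and -0.01.

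Within CD4_T the leading genes went together. The 29 cells that held Ccl1 were compared with the 18 that did not, a division made after the values were seen. The former were deeper, with a median of 3673 UMIs against 1978.5, so shares after thinning to 1000 UMIs are given beside the counts. Ifng was held by 21 of 29 Ccl1-holding cells and by 4 of the other 18, and 121 of its 126 UMIs lay in the former. After thinning its share was 45.8% against 10.3%. Lgals7 was held by 19 of 29 and 3 of 18 cells, 42.8% against 11.2% after thinning. Penk was held by 19 and 3 cells, 36.7% against 12.1%. Igfbp7, Tnfsf8, Nkg7 and Ccl3 also had higher thinned shares in the Ccl1-holding cells.

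Other genes lay mostly outside the Ccl1-holding cells. Maf was held by 9 of 29 cells with Ccl1 and by 13 of 18 without, and after thinning by 13.1% and 42.5%. Ikzf2 was held by 2 of 29 and by 8 of 18 cells, 2.27% against 33.4% after thinning. Of the 10 cells that held Ikzf2, 7 held Tnfrsf4, 2 held Ccl1 and 2 held Foxp3, so both Foxp3-holding cells were among them. Cd40lg was held by 3 of 29 and 6 of 18 cells. Tnfrsf4, Tnfrsf18, Capg and Ifi27l2a were held on both sides, with thinned shares of 45.9% and 38.98%, 38.5% and 45.0%, 40.2% and 48.2%, and 64.5% and 61.5% with and without Ccl1.

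**Figure D4:**
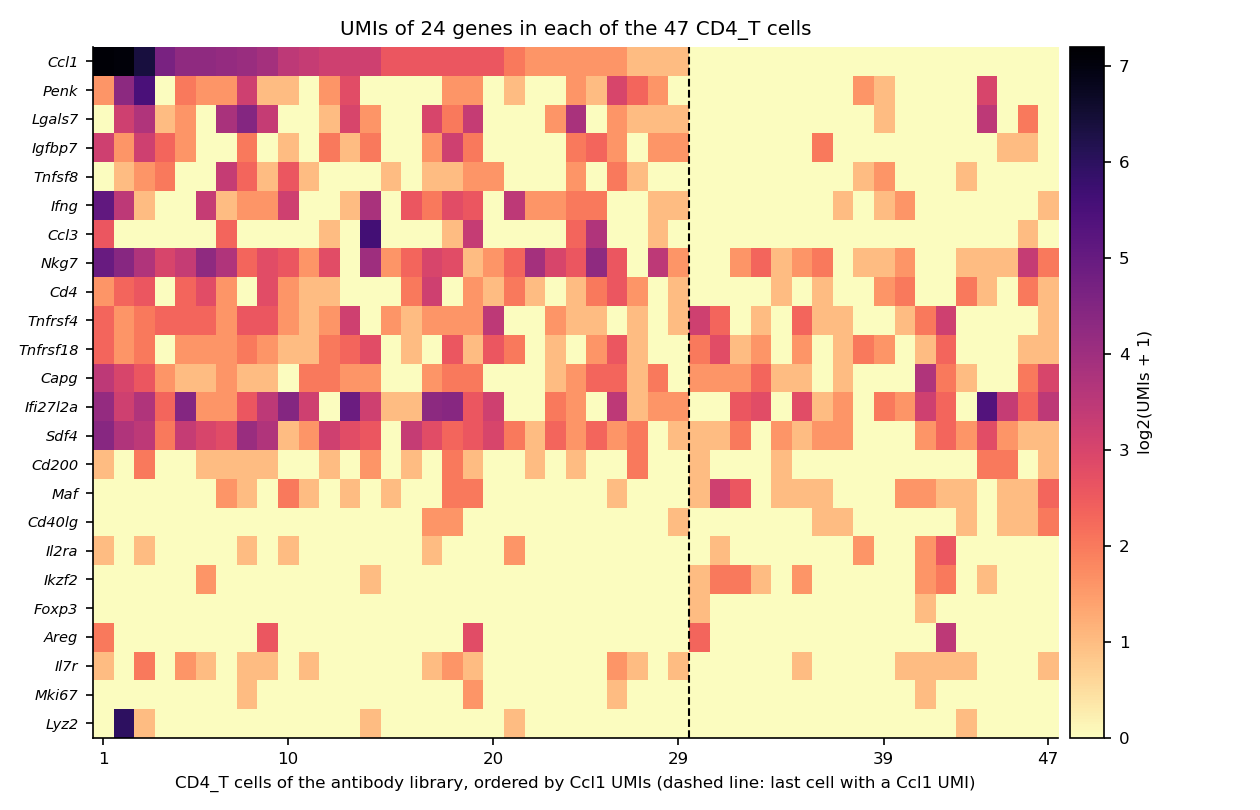
UMIs of 24 genes (rows) in each of the 47 CD4_T cells of the antibody library (columns, ordered by Ccl1), coloured by log2 of the count plus 1; the dashed line follows the last of the 29 cells that hold Ccl1. Penk, Lgals7, Igfbp7 and Ifng lie mostly left of the line, Maf and Ikzf2 mostly right of it, and Lyz2 is almost confined to 1 cell with 62 UMIs.

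**Figure D5:**
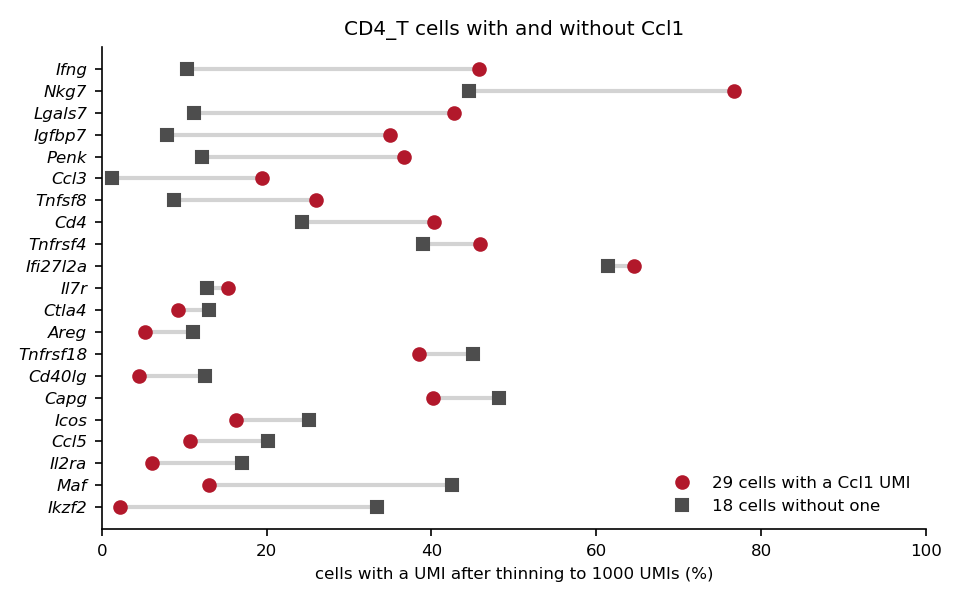
Share of CD4_T cells with a UMI of each gene after thinning to 1000 UMIs (horizontal axis), in the 29 cells with a Ccl1 UMI (circles) and the 18 without (squares). Ifng has 45.8% against 10.3%, whereas Maf has 13.1% against 42.5% and Ikzf2 2.27% against 33.4%.

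Cells with the same transcripts were also found outside the cluster. Of the 208 CD8_T_1 cells, 17 held Cd4 and neither Cd8a nor Cd8b1. These 17 cells gave 72 of the 75 Lgals7 UMIs and 112 of the 387 Ccl1 UMIs of CD8_T_1, and the 177 cells with a Cd8 transcript and no Cd4 gave 2 Lgals7 UMIs. Ccl1 and Penk were not confined in this way. The 177 cells gave 232 of the Ccl1 UMIs, in 29 cells, and 46 of the 90 Penk UMIs, of which the 17 cells gave 21. The levels in the 17 and the 177 cells were 858 and 184 CPM for Ccl1 and 161 and 36.5 CPM for Penk. Of the 17 cells 9 held Ccl1 and 3 held Penk. A single cell gave 83 of their 112 Ccl1 UMIs and 35 of their 72 Lgals7 UMIs, so their Ccl1 level rested largely on that cell. Mki67 was held by 16 of the 17, as by 160 of the 177. These 17 cells were picked after the values were seen. Without them the log2 ratio of Lgals7 to CD8_T_1 went from 3.99 to 8.28, that of Tnfsf8 from 4.16 to 5.27 and that of Ccl1 from 3.72 to 4.08. In CD3_T 11 of 138 cells held Cd4 and no Cd8, and these had 0 UMIs of Ccl1, Penk and Lgals7.

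The share of CD4_T cells in each library depended on the cells it was set against. It was 0.857% of cells (0.631 to 1.14%) with the antibody and 0.451% (0.295 to 0.660%) with IgG, a ratio of 1.90 (1.15 to 3.20). Among immune cells it was 2.32% (47 of 2022) and 2.28% (26 of 1141), a ratio of 1.02 (0.619 to 1.72). Among the 4 T cell clusters it was 9.04% (47 of 520) and 9.85% (26 of 264), a ratio of 0.918 (0.557 to 1.54). The bead enrichment and the mixing with unsorted cells can set the share among all cells, and with 1 library per group their part cannot be told apart from that of treatment.

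Between libraries the CD4_T cells could be compared in 105 genes whose values were complete in both, and 18 of these had at least 10 UMIs in CD4_T. The 26 IgG cells held 70342 UMIs with a median of 2195 per cell. The interval of the ratio excluded 1 for 1 of the 18 genes, Ptpn18, a protein tyrosine phosphatase, with 90 UMIs in 38 of 47 antibody cells and 56 UMIs in 22 of 26 IgG cells. Its level was 556 CPM against 796, a ratio of 0.699 (0.495 to 0.993). Rpl7, a ribosomal protein, had 358 and 176 UMIs, a ratio of 0.884 (0.736 to 1.07), and Cox5b, a subunit of cytochrome oxidase, had 78 and 31, a ratio of 1.09 (0.713 to 1.72). A further pair is named after its values were seen. Zap70, the kinase next to the T cell receptor, had 35 and 13 UMIs, a ratio of 1.17 (0.604 to 2.41). Mcm3, part of the helicase that opens DNA for replication, had 12 UMIs against 1, a ratio of 5.22 (0.772 to 223). The ratios were above 1 for 13 genes and below for 5, with a median log2 of 0.23. These intervals cover counting error within 1 library per group, so they can neither show nor exclude a difference between treatments. With 18 intervals at 95% about 1 can exclude 1 by chance, and the part of chance in that of Ptpn18 was not tested. With the median ratio of the 18 genes set to 1, Rpl7 stood at 0.715, outside its interval above. Cd4, Tnfrsf4, Penk, Ccl1 and Ifng were not among the 18 genes.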

How the data were processed

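Each of 2 tumour groups gave 1 single-cell library. The submitters' processing notes name Cell Ranger 2.1.1; the build, cell filters and clustering method were not given in the sources used here. The deposited expression values are on a natural log scale (the log of 1 plus 10000 times UMIs over the cell's total, tested on the values themselves), and the deposited cluster names, of unit other, chose the cells. UMI counts were recovered from them: in the antibody library 15274637 of 15274637 values above 0 were whole within 0.001. The IgG table was used for its 105 complete genes; depths recovered from these genes alone matched the true depth in 47 of 47 antibody CD4_T cells.

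UMIs were summed per cluster and scaled to CPM. Shares have Clopper-Pearson and ratios exact conditional 95% intervals; log2 ratios have a prior count of 0.5. Thinned shares are each cell's expected chance of keeping a UMI at 1000 UMIs, with shallower cells left out (114 of 138 CD3_T and 206 of 208 CD8_T_1 cells remained). Their intervals were taken from the expected count rounded to whole cells and are approximate. No p-value was computed. Named were list genes with at least 10 UMIs in CD4_T as the text needed them, the listed cell type markers, the 20 genes with the largest lowest bound of 3 ratios (at least 10 UMIs in 5 cells) and the 10 with the smallest highest bound (at least 20 UMIs in each other cluster); ribosomal, mitochondrial, haemoglobin, receptor segment and unnamed genes were left out. Named outside this rule, after their values were seen, were list genes under 10 UMIs (Tbx21, Il13, Il21, Bcl6, Il2, Il10, Ccr8, Lrrc32, Mki67). Members, lists and rules were chosen with earlier results of these data known. Scrublet in scanpy 1.11.5 marked 3 of 5482 cells, too few to have worked, so doublets were not removed. Positions came by symbol from GENCODE M21. Python 3.11.15, numpy 2.4.6, scipy 1.17.1, pandas 2.3.3 and matplotlib 3.10.9 were used. Interval steps were tested on simulated independent (Poisson) counts. These lack the clumping of transcripts in few cells seen here, so the coverage of the intervals under clumping was not tested. Alternatives were other depth minimums, denominators, scalings, UMI minimums and thinning depths, a mean over cells, and leaving out single cells or groups of cells.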

Additional observations from a re-analysis of the deposited data

How the results depend on the processing

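The ratio of CD4_T shares was 1.90 over all cells, 1.95 in cells of at least 1000 UMIs and 2.55 (1.35 to 5.05) at the higher depth minimum tried, but it was 1.02 over immune cells, 1.04 over CD4_T with CD8_T_1 and CD8_T_2, and 0.918 over T cell clusters. The Foxp3 share stayed within its interval under the 4 alternatives run. Counts of genes over 2-fold moved with the UMI minimum: higher than in CD8_T_1, 1045 genes became 1590 at 5 UMIs, 561 at 20 and 107 with an expected count of at least 10 in both clusters, the last chosen after seeing the data. Lower than in CD8_T_1, 1588 became 947 with a prior count of 1 and 346 with the expected count. Against CD8_T_2, 266 higher became 634, 95 and 103 at 5 UMIs, 20 UMIs and the expected count, and 507 lower became 960, 209 and 110. Against CD3_T, 388 higher became 859, 177 and 215, and 411 lower became 914, 141 and 143. Fewer or more genes enter by construction. The cell cycle medians against CD8_T_1 and CD8_T_2 became -3.12 and -1.38 with a mean over cells. Of 720 alternative values of single gene ratios 678 stayed within the main interval, 33 left it in the same direction and 9 reversed, all of Lyz2: without the cell that held most of it the log2 ratio was -1.98, -0.77 and -1.32 against CD8_T_1, CD8_T_2 and CD3_T, without both cells with at least 10 myeloid UMIs -1.96, -0.75 and -1.29, and without the 3 cells richest in Ccl1 -2.23, -1.02 and -1.57; the last 2 settings were added after seeing the data. The alternatives that leave out predicted doublets were not run, since the caller had not worked. No paired analysis was possible because each group is 1 library. A gene at 0 UMIs in 47 cells can still be expressed in cells that yielded none. Rpl7 between libraries left its interval, at 0.715, with the median ratio set to 1.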

Other observations

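Macrophage_2, a cluster of 158 cells in the antibody library, held 30.2% of the library's Ccl1 UMIs, 489 in 18 cells. Of these 18 cells 17 held a Cd3 transcript, at 1322 CPM against 453 CPM in the 140 cells of the cluster without Ccl1. They also held 107 of the cluster's 111 Penk UMIs and 210 of its 274 Ifng UMIs. All 18 held C1qa, a complement gene of macrophages, at 1758 CPM against 2235 CPM in the other 140 and 6.18 CPM in CD4_T. Their median depth was 13325 UMIs, against 10267.5 in the other cells of the cluster and 2808 in CD4_T. Whether these barcodes held 2 cells was not tested, since the doublet caller marked too few cells to be of use.

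Penk had a further source outside lymphocytes, with 73 UMIs in 21 of 96 cells of Fibroblast&Endothelial_1, or 64.96 CPM.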
